A study of Homo sapiens with 36 samples.

Results

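ZR-75-1 is an established luminal breast cancer cell line that carries estrogen receptor. The response described here is that of these cells to medroxyprogesterone acetate (MPA), a synthetic progestin, given alone. It was read from 4 arrays of MPA-treated cells against 4 arrays of cells given the ethanol vehicle (VC), which are 8 of the 36 Illumina bead arrays of the study. The arrays were chosen by their group labels, and all 12195 genes that could be tested were compared. Cells of every group had been kept for 48 h in phenol red-free medium with 10% hormone-stripped serum, and then received hormone or vehicle for 16 h. The labels give 10 nM for estradiol (E2) and dihydrotestosterone (DHT, an androgen), alone and together. They give no dose for MPA, for progesterone (PROG) or for the E2 that accompanied either progestin. MPA and vehicle cells were thus without added estrogen. Values of the groups treated with E2, with E2 and MPA, with PROG and with DHT, each of 4 arrays, are given only where they show how the MPA response varies. All 36 arrays entered the normalization, the choice of probes and the estimate of spread in the main fit. All samples come from 1 cell line, and the labels do not say whether the replicates of a group were separate cultures. The spread behind the p-values of the main fit is that between arrays within groups, over all 36 arrays, possibly a technical one only.

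Steroid hormone receptors are transcription factors that bind DNA once they hold their ligand. Several of them, among them the receptors for progesterone, glucocorticoid and mineralocorticoid, are close relatives that recognise a common DNA element, so that genes such as FKBP5 answer to several of them. MPA binds the progesterone receptor and is also known to bind other steroid receptors, such as that for glucocorticoid. In breast cells progestins are known to act on secretory, metabolic and cell cycle genes, and estrogen is needed in many lines for the progesterone receptor to be made. Enzymes of the UGT2B family, which attach glucuronic acid to steroids and so mark them for export, are known to respond to androgens.

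Steroid-conjugating enzymes of the UGT2B family were among the largest increases, though not every member rose. Promoters of members that rose are shown. UGT2B7, UGT2B10 and UGT2B11 had an entry in the RefSeq promoter table (build GRCh38.p14), and all lie on chromosome 4. UGT2B15 also had an entry and is not shown. The 80 bases before each start site follow, at chr4:69214749-69214828 (minus strand) for UGT2B11, chr4:68815914-68815993 (plus strand) for UGT2B10 and chr4:69096394-69096473 (plus strand) for UGT2B7. Capitals mark bases that differ from UGT2B10 in the UGT2B11 line and from UGT2B11 in the other lines.
UGT2B11: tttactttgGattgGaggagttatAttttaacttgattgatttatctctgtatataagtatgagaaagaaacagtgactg
UGT2B10: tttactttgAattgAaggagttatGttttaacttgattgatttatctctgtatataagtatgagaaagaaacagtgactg
UGT2B7: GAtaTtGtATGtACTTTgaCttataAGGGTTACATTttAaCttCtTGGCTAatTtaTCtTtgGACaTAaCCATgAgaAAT
UGT2B10 and UGT2B11 shared 77 of these 80 bases, while UGT2B7 and UGT2B11 shared 30 when set side by side without gaps. The family consists of close copies, and how far a probe for 1 member also reads the RNA of another is uncertain, as it is for the AKR1C and STEAP genes below.

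The hexamer TGTTCT, a part of the element that these receptors share, was searched on both strands of the 300 bases from 250 before to 50 after the start site. It stood in 13 of the 82 promoters at hand for genes higher with MPA (15.9%), in 9 of 95 for genes lower with MPA (9.47%) and in 900 of 9964 for all tested genes (9.03%). Allowing 2 mismatches, the full palindrome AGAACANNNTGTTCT, which overlaps the hexamer, stood in 2 of the 82, in 1 of the 95 and in 63 of the 9964 (0.632%). These matches describe letters in a window and were not tested. None of the UGT2B promoters above held the hexamer in its window. The promoters of SERPINA3, STAT5A and PIP, named below among the genes that rose, are shown because they hold it before the start site. The first stretch lies at chr14:94612266-94612360 (plus strand), with the 15 bases that match the palindrome with 2 mismatches in capitals. The others lie at chr17:42287312-42287377 and chr7:143131849-143131914 (both plus strand), with the hexamer, as it reads on the opposite strand, in capitals.
SERPINA3: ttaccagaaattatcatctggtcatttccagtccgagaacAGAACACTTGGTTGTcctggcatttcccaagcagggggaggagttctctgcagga
STAT5A: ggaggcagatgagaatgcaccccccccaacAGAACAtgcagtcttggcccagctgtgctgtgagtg
PIP: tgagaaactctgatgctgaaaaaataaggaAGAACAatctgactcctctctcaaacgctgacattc

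The share of the 48803 probes above background ranged from 34.1% to 37.9% over the 8 arrays, with 35.5% ± 1.71 for vehicle and 36.2% ± 0.70 for MPA (SD, n = 4 each). No pair of arrays held identical values. All 9 luminal epithelial markers, such as KRT8, KRT18 and GATA3, were above background on all 8 arrays. The 3 basal markers measured, KRT5, KRT14 and VIM, were above background on none. Of 6 fibroblast markers COL1A1 was above background on all 8 arrays, and of 5 leukocyte markers CD68 was. CD68 stood at 8.25 ± 0.84 with vehicle and 9.25 ± 0.51 with MPA (SD, n = 4, adjusted p 0.125 in limma), LYZ was above background on 3 vehicle and 2 MPA arrays, and CD79A on 1 and 3. The endothelial PECAM1 was above background on 3 vehicle and 4 MPA arrays and VWF on 3 and 2. The leukocyte markers PTPRC and CD3E and the endothelial markers CDH5 and KDR were above background on 0 arrays. All samples come from 1 cell line, and whether any of this marker signal came from other cells was not tested. No marker of these cell types passed the test between MPA and vehicle. In such bulk samples fewer cells of a type and less RNA per cell cannot be told apart. The 4 MPA arrays resembled each other closely, with correlations of 0.981 to 0.993 across genes, while the 4 vehicle arrays spread from 0.915 to 0.988. The vehicle arrays were spread along 1 direction that held 49.4% of the residual variance over all 36 arrays. On it vehicle replicates 1 to 4 scored -53.8, 42.2, 23.6 and -12.0, and the MPA arrays lay between -7.98 and 9.29. Vehicle replicate 4 was also the only 1 of the 8 arrays within columns 13 to 24 of the deposited table, all 12 of which have negative scores on that direction.

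**Figure D1:**
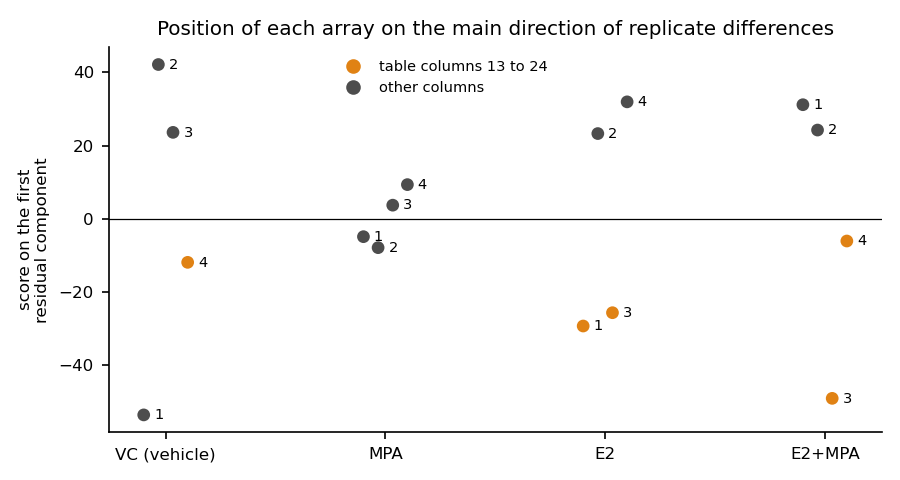
Score of each array on the direction that holds 49.4% of the residual variance, in arbitrary units, for the vehicle, MPA, E2 and E2+MPA groups (4 arrays each, numbered by replicate; orange marks columns 13 to 24 of the deposited table). The MPA arrays lie between -7.98 and 9.29, and the vehicle arrays are spread from -53.8 to 42.2.

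In all, 229 of 12195 genes (1.88%) passed an adjusted p of 0.05 between MPA and vehicle, 110 higher (0.902%) and 119 lower (0.976%). The increases were larger than the decreases. Of the higher genes 61 differed by more than 1 on the log2 scale, against 22 of the lower genes, and the medians were 1.12 and -0.80. The arrays of the 2 groups did not overlap for 211 of the 229, as they did not for 9.95% of all genes tested. The median gene differed by -0.10. On the authors' processed values the median gene differed by 0.03, and 191 genes passed, 64.4% of them higher against 48.0%. The counts rest on the vehicle arrays. Without vehicle replicate 1, 119 genes passed, 85 of them higher. Without vehicle replicate 2 the count was 1692, 809 of them higher and 883 lower. Without both it was 89, of which 86 were among the 229. Of the 61 named genes past the threshold, 18 lost their call without vehicle replicate 1, none without vehicle replicate 2 and 24 without both, in fits that also hold fewer arrays. These were 26 genes in all, 13 higher and 13 lower. The higher ones were RGS2, GOLGA8A, SGK1, TIPARP, STAT5A, PIP, AZGP1, CROT, S100P, GADD45G, KCNQ3, KRT15 and SLC38A1, and the lower ones BCL2, ZBTB20, TENM3, PHLDA1, REV3L, WLS, TGFB3, HTRA1, SOAT2, SOCS1, CACNA1H, ELMO1 and DOCK10. A fit to these 8 arrays alone called 40 genes, 36 higher and 4 lower. The lower genes followed the main direction of residual variance more closely, taken over all 36 arrays after group means were removed. Their median correlation with the scores on it was -0.60, against -0.004 for the higher genes and -0.30 for all genes. The part of the spread of the vehicle arrays in the decreases was not tested.

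Genes of steroid conjugation and interconversion were among those that rose most. On MPA replicates 1 to 4 UGT2B11 stood at a normalized log2 signal of 9.71, 9.62, 9.47 and 9.04, and on the vehicle arrays at 5.90, 5.74, 5.40 and 6.10. UGT2B28 stood at 8.73, 8.56, 8.50 and 8.73 with MPA and at 5.47, 5.36, 5.41 and 5.62 with vehicle. Neither was above background on any vehicle array, and the groups were far apart for both. The increases were therefore at least 10.9-fold and at least 6.11-fold, with fitted differences of 3.67 ± 0.19 and 3.16 ± 0.15 (log2, SE) and adjusted p of 2.34e-15 and 9.56e-16. UGT2B7 was above background on every array, at 10.07, 9.83, 9.79 and 9.56 with MPA and at 8.06, 6.30, 6.05 and 6.73 with vehicle. Vehicle replicate 1 was the highest of its group by far, and the difference of 3.03 ± 0.25 (adjusted p 7.59e-10) still separated the groups. The 3 probes of UGT2B7 differed by 0.01 to 3.26. UGT2B10, above background on 0 vehicle arrays, rose at least 1.53-fold, from 5.21 to 5.46 over the vehicle arrays to 6.45 to 6.95 over the MPA arrays.

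The list of steroid enzymes, chosen like the lists below with earlier results of these data known, held 24 measured genes. Of them 7 rose, 0 fell and 17 did not pass, where 0.902% of all genes rose and 0.976% fell. The list median was 0.57, against -0.10 for all genes. Beside the UGT2B genes the 7 were AKR1C3, HSD11B2 and HSD17B2. AKR1C3, a reductase that makes and unmakes active androgens and progestins, was at 7.87, 7.29, 7.71 and 7.19 with MPA and at 5.81, 5.99, 5.49 and 6.38 with vehicle, with 2 of those 4 arrays above background, an increase of at least 2.63-fold (adjusted p 1.01e-05). HSD11B2, which inactivates cortisol, rose 2.41-fold from 8.73 ± 0.25 to 10.00 ± 0.17 (SD, n = 4, adjusted p 9.64e-08). HSD17B2, which oxidises estradiol and testosterone to weaker steroids and is named here after its values were seen, rose by 1.25 ± 0.22 (log2, SE). UGT2B17, another conjugating enzyme, differed by 0.04 (adjusted p 0.87). SRD5A1, which reduces testosterone to DHT, differed by -0.47 and STS, which frees steroids from sulfate, by -0.25, and neither passed. The count of 7 was also 7 without vehicle replicate 1, was 12 with 1 gene lower without vehicle replicate 2, and was 6 without both. Without vehicle replicate 2, 809 of all 12195 genes passed as higher and 883 as lower.

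FKBP5, a cochaperone of steroid receptors and a widely used readout of their activity, was at 11.11, 11.28, 11.46 and 11.17 with MPA and at 9.72, 9.53, 9.49 and 9.54 with vehicle. The groups lay well apart, with a spread within each that was small beside the 3.21-fold difference (log2 1.68 ± 0.13 SE, adjusted p 3.48e-10). Of the 14 measured genes of the response that several of these receptors share, 4 rose, 0 fell and 10 did not pass. The list median was 0.46, while over all genes the median was -0.10 and 0.902% rose. SGK1, a kinase that controls ion transport, rose from 6.44, 6.09, 6.03 and 6.35 to 7.32, 7.21, 7.19 and 6.94. NFKBIA, the inhibitor that holds NF-kB in the cytoplasm, rose 1.44-fold and TIPARP, a mono-ADP-ribosyltransferase, 1.37-fold. TIPARP (adjusted p 0.0446) and SGK1 (0.0193) passed in 12 and 13 of 19 alternative settings. The glucocorticoid-induced TSC22D3 differed by 0.09 on the probe used, with its 4 probes between -0.69 and 0.50. KLF9, a transcription factor, differed by 0.38 (it passed without vehicle replicate 1, at 0.52 with an adjusted p of 0.0241, and with array weights) and the clock gene PER1, above background on 1 of the 8 arrays, by 0.53, and neither passed with all arrays. Without both vehicle replicates 1 and 2 the count of 4 became 2, and in the fit to the 8 arrays alone it was 1. ZBTB16 is not analysed here.

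Among 21 measured genes known as androgen-induced, 8 rose, 0 fell and 13 did not pass, against 0.902% higher over all genes. The list median was 0.37, against -0.10 for all genes. STEAP2 and STEAP1 encode metalloreductases of the cell surface that are abundant in prostate. STEAP2 was above background on no vehicle array, at 5.43, 5.45, 5.60 and 5.32, and stood at 7.13, 7.84, 7.43 and 7.37 with MPA, at least 2.68-fold higher. STEAP1, above background on 1 vehicle array, was at least 3.13-fold higher, and both probes of each gene moved up. CLDN8, a tight junction protein, rose from 8.84, 8.15, 8.13 and 8.54 to 10.21, 10.10, 9.93 and 9.80 (3.02-fold, adjusted p 4.17e-09). The transcription elongation factor genes EAF2 and ELL2 rose 2.73-fold and 2.31-fold, and CROT, which handles fatty acids in peroxisomes, 1.61-fold. PIP and AZGP1, secreted proteins of apocrine cells, rose 1.79-fold and 1.59-fold. KLK2, a prostate kallikrein, differed by 0.03, and TMPRSS2 (-0.61) and SLC45A3 (-0.37) had lower values that did not pass. Without vehicle replicates 1 and 2 the count was 5, and in the fit to the 8 arrays alone it was 4.

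Of 22 measured genes known as progestin-induced in breast, 6 rose, 0 fell and 16 did not pass, against 0.902% higher over all genes. The list median was 0.07, against -0.10 for all genes. The 6 were CLDN8 and HSD11B2, which other lists also hold, and SOCS2, SCGB1D2, S100P and STAT5A. SOCS2, which restrains cytokine and growth hormone signalling, was at 10.39, 10.56, 10.40 and 10.24 with MPA and at 8.70, 9.31, 9.22 and 9.32 with vehicle, a 2.39-fold increase (adjusted p 1.44e-06). Its second probe moved by 1.17, close to the 1.26 of the probe used. SCGB1D2, a secretoglobin of breast epithelium, rose 2.25-fold, and S100P, a calcium-binding protein, rose 2.24-fold with vehicle replicate 1 the lowest array at 12.57. STAT5A, the factor through which prolactin drives milk protein genes, rose at least 1.53-fold, with 2 of 4 vehicle arrays above background (adjusted p 0.0185), a call that held in 11 of 19 alternative settings. ELF5 (-0.29) and WNT4 (-0.26), progestin targets of the normal gland, did not pass. The count of 6 was 4 without vehicle replicates 1 and 2 and also 4 in the fit to the 8 arrays alone. TNFSF11 is not analysed here.

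No gene of the steroid receptors passed with all arrays. PGR, the progesterone receptor gene, was above background on 1 vehicle array and on 0 MPA arrays, at 5.73 ± 0.13 and 5.56 ± 0.18 (SD, n = 4), a difference of -0.18 with an adjusted p of 0.629. ESR1 stood at 10.59, 10.51, 10.36 and 10.61 with MPA and at 9.82, 11.13, 11.11 and 11.02 with vehicle, so that vehicle replicate 1 lay below all others (difference -0.25, adjusted p 0.346). NR3C1, the glucocorticoid receptor gene, differed by -0.34 (adjusted p 0.337) and the mineralocorticoid receptor gene NR3C2 by -0.61 (adjusted p 0.11). ESR1 passed as lower without vehicle replicate 1 (-0.57, adjusted p 0.00804) and with array weights (-0.56, adjusted p 0.00343), and missed the threshold without both vehicle replicates 1 and 2 (-0.55, adjusted p 0.052). Among the 36 measured targets of estrogen, GREB1 alone rose and none fell, where 0.902% of all genes rose. The list median was -0.08, against -0.10 for all genes. GREB1, a growth regulator, rose at least 2.28-fold and on 2 of its 3 probes. The list had 3 genes higher and 4 lower without vehicle replicate 2, and none either way in the fit to the 8 arrays alone. Of all 12195 genes, 809 passed as higher and 883 as lower without vehicle replicate 2. TFF1 differed by -0.35 and CCND1 by -0.20, and neither passed.

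**Figure D2:**
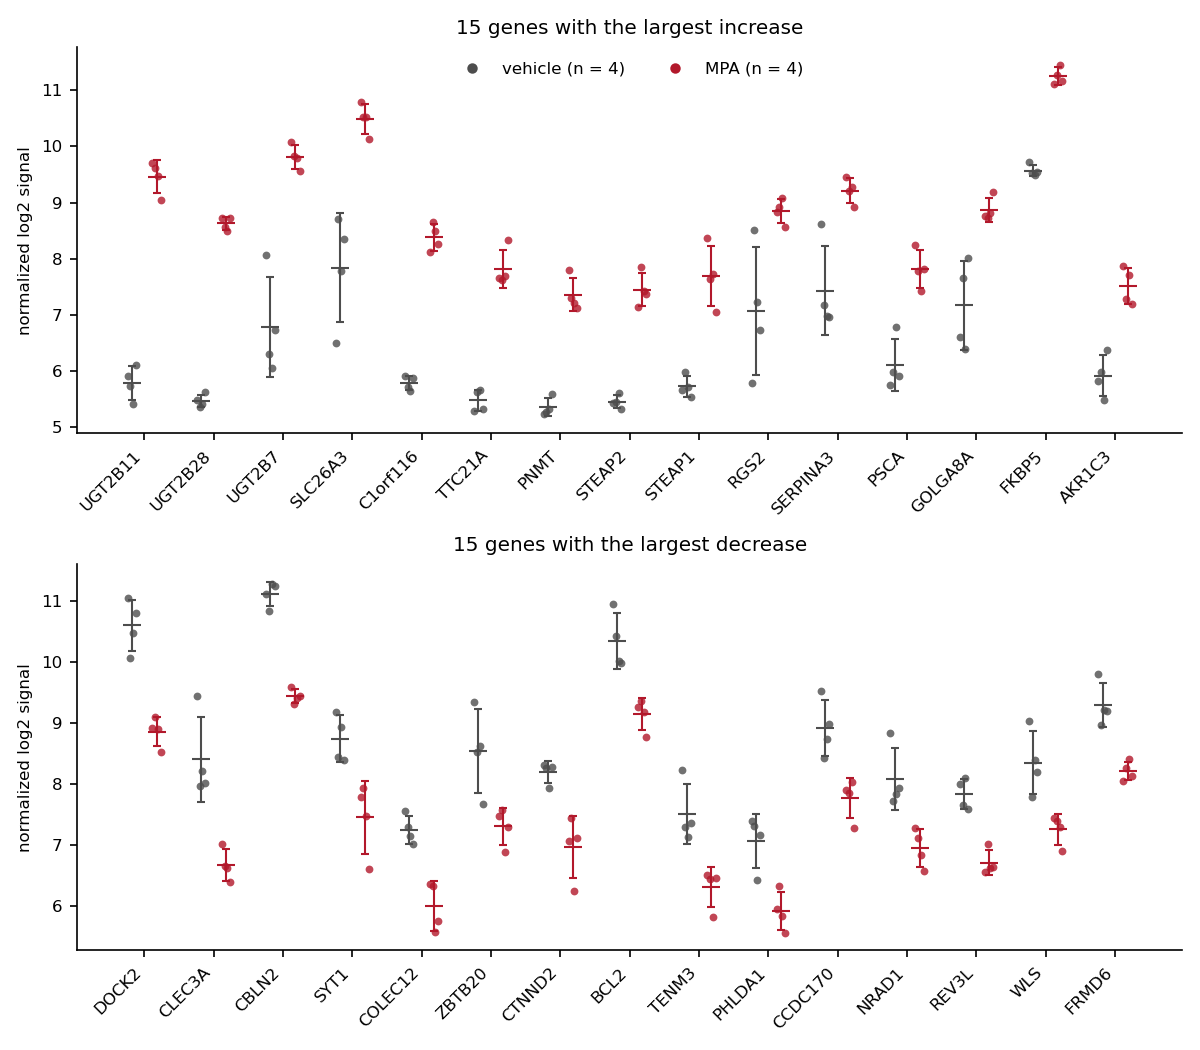
Normalized log2 signal on every array for the 15 genes with the largest increase and the 15 with the largest decrease among those past the threshold, for vehicle and MPA (points are arrays, bars are mean ± SD, n = 4). Only genes whose arrays do not overlap between the 2 groups were eligible. UGT2B7, RGS2 and SERPINA3 have a vehicle array well above the rest of its group.

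Other large increases fell outside these lists or belonged to smaller ones. C1orf116, a gene known as androgen-regulated in prostate cells, was at 8.11, 8.66, 8.49 and 8.27 with MPA and at 5.90, 5.71, 5.64 and 5.88 with vehicle, where no array was above background. It rose at least 5.14-fold (adjusted p 2.21e-11), and its other probe by 0.94. SLC26A3, a chloride and bicarbonate exchanger, rose 6.29-fold from vehicle values of 6.49, 8.71, 7.78 and 8.36 to MPA values of 10.78, 10.52, 10.52 and 10.13. PNMT, the enzyme that makes adrenaline from noradrenaline, rose at least 2.53-fold from below background, with MPA arrays at 7.79, 7.29, 7.22 and 7.13. TTC21A, a ciliary transport protein, rose at least 3.48-fold, with MPA replicate 4 at 8.33 above the other 3 at 7.62 to 7.68. SERPINA3, a secreted inhibitor of proteases, was at 9.46, 9.20, 9.28 and 8.91 with MPA and at 8.61, 7.17, 6.98 and 6.96 with vehicle, and rose 3.44-fold. PSCA, a surface antigen of prostate and bladder epithelium above background on 2 vehicle arrays, rose at least 2.98-fold. RGS2, which dampens G protein signalling, rose at least 3.27-fold, but its vehicle arrays ran from 5.78 to 8.52 and the call was lost in 5 of 19 alternative settings.

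In lipid metabolism THRSP, which promotes fatty acid synthesis, rose from 11.13, 10.89, 10.75 and 10.99 to 12.40, 12.51, 12.14 and 12.23, a 2.60-fold difference at an adjusted p of 2.18e-07. It was the only one of 27 measured genes of fatty acid and triglyceride synthesis to pass, where 1.88% of all genes passed. The list median was 0.04. ACSL1, which activates long fatty acids, differed by 2.03 without passing (adjusted p 0.077). FASN, the fatty acid synthase itself, differed by 0.04. Without vehicle replicate 2 this list had 3 genes higher and 2 lower, where 809 of all 12195 genes were higher and 883 lower. Of 20 genes of cholesterol synthesis and uptake, only SOAT2, which esterifies cholesterol, passed, where 1.88% of all genes did. It fell by 0.89, a call that held in 9 of 19 alternative settings.

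Ion channels and the JAK-STAT pathway had members moving both ways. KCNMA1, a large-conductance potassium channel, rose 1.96-fold (adjusted p 0.000176), and KCNQ3, a voltage-gated potassium channel, rose at least 1.58-fold with its probe above background on 0 vehicle arrays, while CACNA1H, a T-type calcium channel, fell by 0.97. These were 3 of 24 measured channel genes, where 1.88% of all genes passed. Without vehicle replicate 2 there were 3 higher and 2 lower, against 809 and 883 of all 12195 genes. Of 23 JAK-STAT genes SOCS2 and STAT5A rose and SOCS1 fell, where 1.88% of all genes passed. SOCS1, a further inhibitor of cytokine signalling, was at least 1.50-fold lower with MPA, above background on 1 of 4 MPA arrays. The SOCS1 call held in 6 of 19 alternative settings. Without vehicle replicate 2 the JAK-STAT list had 4 genes higher and 2 lower, against 809 and 883 of all 12195 genes.

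DOCK2, CLEC3A and CBLN2 were among the largest decreases. DOCK2, an activator of the small GTPase Rac best known from leukocytes, was at 8.91, 9.09, 8.90 and 8.52 with MPA and at 11.05, 10.07, 10.47 and 10.81 with vehicle (3.35-fold lower, adjusted p 5.97e-07). CBLN2, a secreted synapse organiser, was at 9.59, 9.31, 9.40 and 9.44 against 11.12, 10.83, 11.28 and 11.24 (3.21-fold lower, adjusted p 9.41e-09). Both groups were tight and far apart for CBLN2. CLEC3A, a C-type lectin of cartilage that the list of secretory proteins holds, fell by 1.74 on the probe used while its other probe differed by 0.29, and vehicle replicate 1 at 9.44 lay well above the other vehicle arrays at 7.96 to 8.20. BCL2, an inhibitor of apoptosis, fell from 10.95, 10.42, 10.01 and 9.99 to 9.25, 9.36, 9.18 and 8.77, with all 3 probes lower. It was the only one of 25 apoptosis regulators to pass, where 1.88% of all genes did. Without vehicle replicates 1 and 2 its call was lost (adjusted p 0.0587). Without vehicle replicate 2 the list had 6 genes higher and 1 lower, against 809 and 883 of all 12195 genes.

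ELMO1, the partner of DOCK proteins, fell by 1.00 and DOCK10 by 0.72. Without vehicle replicates 1 and 2 they differed by -0.76 and -0.72 and did not pass (adjusted p 0.347 and 0.196), while DOCK2 passed there. PER3, a clock gene, fell by 1.04, the only one of 18 clock genes to pass, where 1.88% of all genes passed. HTRA1, a serine protease, was at least 2.03-fold lower and TGFB3, a growth factor, fell by 0.70. Without vehicle replicate 1 TGFB3 differed by -0.55 (adjusted p 0.108), and without both vehicle replicates 1 and 2 HTRA1 had an adjusted p of 0.052. Further decreases among the 15 largest were SYT1 (a calcium sensor of vesicle release), ZBTB20 (a zinc finger repressor), CTNND2 (a delta catenin), CCDC170, NRAD1, REV3L (the catalytic subunit of a translesion polymerase), WLS (the carrier of WNT proteins) and FRMD6, between -1.29 and -1.09. COLEC12, a scavenger receptor above background on 2 MPA arrays, was at least 2.16-fold lower, PHLDA1, above background on 2, at least 2.05-fold, and TENM3, a teneurin above background on 3, at least 2.24-fold. TENM3 and PHLDA1 held their call in 11 and 10 of 19 alternative settings, and ZBTB20 in 13.

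No gene of G1/S and DNA replication (39 measured) or of G2/M and mitosis (40 measured) passed in limma, 14 and 16 had an unadjusted p under 0.05 against 3107 of all 12195 genes, and their medians were -0.24 and -0.10, against -0.10 for all genes. CCND1 differed by -0.20 and MYC by -0.37, with its other probe at 0.83, and neither passed. The G1/S genes with the highest values were PCNA, the sliding clamp of DNA polymerases, at 1.53 (adjusted p 0.16) and RFC2 at 1.04 (adjusted p 0.15). GADD45G, which slows the cell cycle under stress, was 2.37-fold higher, and its call held in 8 of 19 alternative settings. It was the only one of 15 growth arrest genes to pass, where 1.88% of all genes did. Without vehicle replicate 2, 1 G1/S gene passed as higher and 7 as lower, and 4 G2/M genes as higher and 4 as lower. In that setting 809 of all 12195 genes passed as higher and 883 as lower. No gene of the interferon, hypoxia, unfolded protein, metallothionein and housekeeping lists passed in limma, and 8 of 21, 7 of 30, 10 of 32, 2 of 9 and 1 of 13 had an unadjusted p under 0.05.

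**Figure D3:**
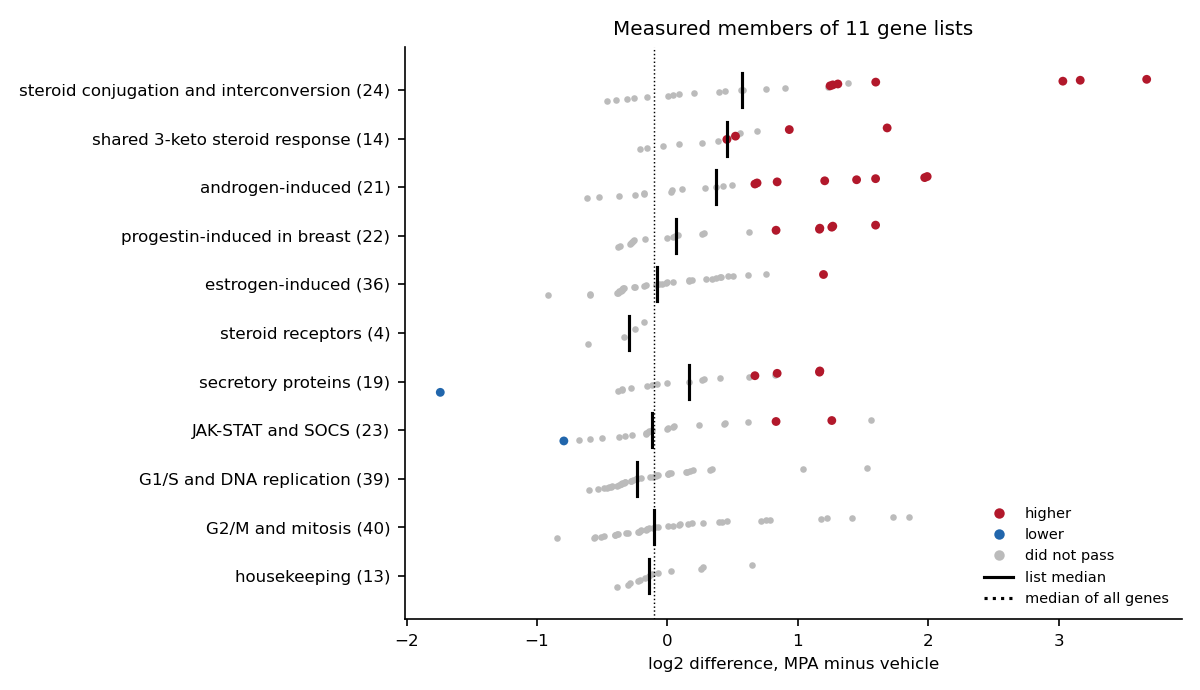
Log2 difference between MPA and vehicle for the measured members of 11 gene lists (points are genes, numbers are members measured; red passed as higher, blue as lower, black bars are list medians, the dotted line is the median of all genes at -0.10). Steroid enzymes have the highest median, 0.57, and 7 of 24 members past the threshold, where 1.88% of all genes passed. The cell cycle lists have none.

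E2+MPA against E2 alone measures the same hormone in other arrays, since neither group enters the difference between MPA and vehicle. In the main fit both comparisons share 1 estimate of spread per gene, taken from all 36 arrays. Passing in 1 is therefore not independent of passing in the other. The dose of the E2 given with MPA is not labelled, so here and in the interaction a different dose of E2 and the presence of MPA cannot be told apart. There 261 genes passed (2.14%), 150 higher (1.23%) and 111 lower (0.91%). On the authors' processed values 168 of 233 were higher, or 72.1% against 57.5%. Of the 110 genes higher with MPA alone, 98 had the same direction with E2 present and 61 passed again (55.5%). Of the 119 lower genes 101 had the same direction and 15 passed again (12.6%). Over all genes tested 41.9% had the same direction, and 1.67% passed in E2+MPA against E2 with that direction. None of the 229 passed in the opposite direction. In all 76 genes passed in both, which are 33.2% of the 229 and 29.1% of the 261. The median of the higher genes went from 1.12 alone to 0.77 with E2, and that of the lower genes from -0.80 to -0.23. Among the lower genes 59 differed by less than 0.25 in size with E2, against 20 of the higher genes. Both sets were chosen for passing with MPA alone, which favours larger values there. The smaller values with E2 thus do not show a weaker response. The count of 76 was 77 without vehicle replicate 1, 86 without vehicle replicate 2, 58 without both, and 27 where each comparison was fitted to its own arrays.

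The genes that passed in both settings were led by the steroid enzymes. With E2 present UGT2B11 was at 8.78, 8.93, 9.20 and 8.78 with MPA and at 5.88, 5.53, 5.85 and 5.76 without, at least 7.70-fold higher with no array of E2 alone above background. UGT2B28 and UGT2B10, also above background on no array of E2 alone, rose at least 4.18-fold and 1.67-fold, AKR1C3 at least 2.79-fold, and UGT2B7, measured on all arrays, by 2.90. FKBP5 was at 11.42, 11.46, 11.82 and 11.93 against 10.04, 9.35, 9.70 and 9.52, a difference of 2.01. Lower bounds again apply to C1orf116 (at least 7.34-fold), PNMT (3.44), TTC21A (3.31), STEAP2 (3.15), STEAP1 (2.50), STAT5A (2.33) and SGK1 (2.16), which all rose with E2 present. CLDN8 (1.55 on the log2 scale), SERPINA3 (1.36), HSD11B2 (1.22), THRSP (1.07) and SOCS2 (0.89) rose as well. Among the lower genes CBLN2 (-1.53), DOCK2 (-1.31), BCL2 (-1.27), DOCK10 (-0.84) and CTNND2 (-0.79) fell again, and SOAT2 was at least 2.35-fold lower. SYBU, a microtubule linker, and CALD1, an actin-binding protein, are named after their values were seen. SYBU rose by 1.56 alone and by 2.65 with E2, and CALD1 at least 1.39-fold alone and at least 3.13-fold with E2.

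Other genes had a value near 0 with E2 present. GOLGA8A, a golgin-like gene, rose 3.25-fold with MPA alone and differed by 0.19 with E2 (adjusted p 0.886). S100P differed by 0.28, PIP by -0.07, GADD45G by 0.21 and ELMO1 by -0.08 with E2, and none of these passed there. SLC26A3, at 2.65 alone, differed by 1.01 with E2 at an adjusted p of 0.0511. For all of these the interaction did not pass, with adjusted p between 0.097 and 0.19, so that a difference between the settings was not shown. In PROG against vehicle, which uses the same vehicle arrays, GOLGA8A differed by 1.01, GADD45G by 0.97, PIP by 0.70 and S100P by 0.55.

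The interaction of E2 and MPA was tested directly, and 8 genes passed (0.0656%). Of the 229 genes they held P3H2, SSTR2 and UROD, which are named here after their values were seen. P3H2, a collagen prolyl hydroxylase, was above background on 2 vehicle arrays and 3 of E2 alone, and rose at least 1.67-fold alone and at least 4.88-fold with E2. SSTR2, a somatostatin receptor, rose by 0.76 alone and differed by -0.50 with E2 (adjusted p 0.128). UROD, an enzyme of heme synthesis, rose from 11.41, 11.70, 11.40 and 11.71 to 12.60, 12.52, 12.62 and 12.70 with MPA alone and differed by 0.25 with E2. PGR, at background with MPA and vehicle, stood at 8.89, 9.15, 8.45 and 9.27 with E2 and at 7.04, 7.08, 7.11 and 6.66 with E2 and MPA. Its interaction of -1.79 ± 0.33 (log2, SE, adjusted p 0.0221) is thus measured against background where E2 was absent. The count of 8 was 3 without vehicle replicate 1 and 955 without vehicle replicate 2.

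**Figure D4:**
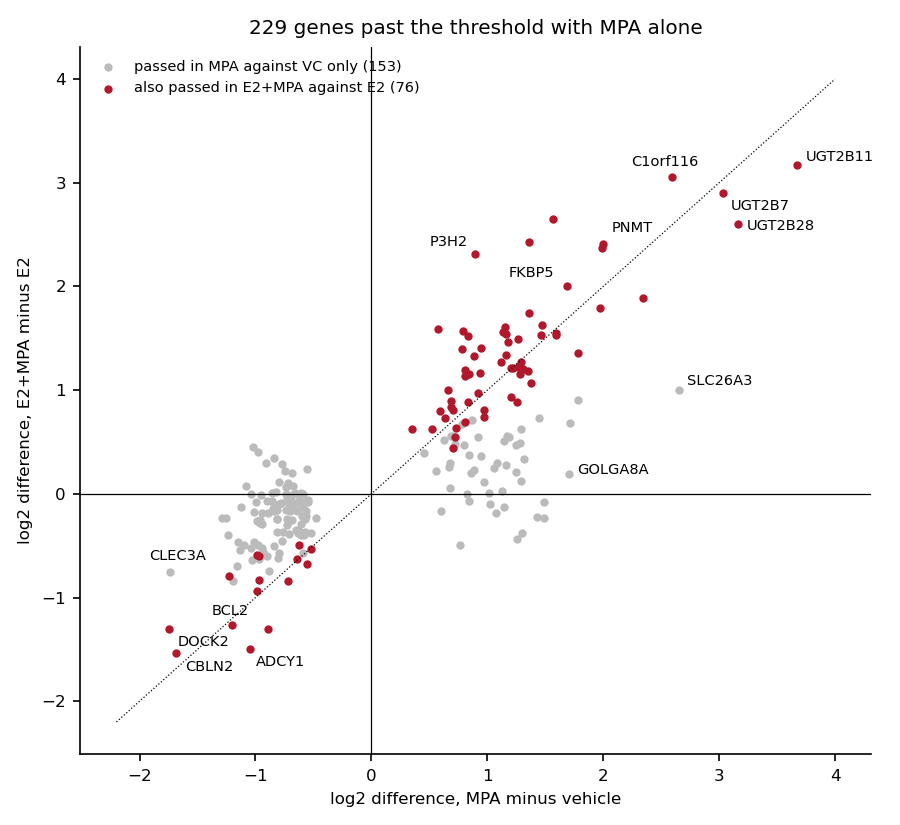
Log2 difference with MPA in the absence (horizontal) and presence (vertical) of E2 for the 229 genes past the threshold with MPA alone; red points also passed with E2, and the dotted line marks equal differences. The points share no arrays between the axes. The median of the higher genes is 1.12 and 0.77 on the 2 axes, that of the lower genes -0.80 and -0.23. The genes were chosen on the horizontal axis, which favours larger values there.

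MPA was set beside progesterone, the natural hormone of the same receptor, and beside DHT. The comparisons with vehicle share the vehicle arrays, and the doses of MPA and PROG are not given, so a difference of compound and a difference of dose cannot be told apart. The differences in the direct comparisons do not use the vehicle arrays, which enter only the shared normalization, choice of probes and estimate of spread. MPA against PROG had 56 genes past the threshold (0.459%), 53 of them higher with MPA, and 50 in a fit to those 8 arrays alone. MPA against DHT had 38 (0.312%), 12 higher and 26 lower, while on the authors' processed values 27 of 49 were higher. DHT replicates 1, 2 and 4 and no MPA array lie in columns 13 to 24 of the table, so this comparison largely runs along those columns. With the columns as a block 19 of 35 genes were higher, and without those arrays 13 genes passed. FKBP5 stood at 11.25 ± 0.15 with MPA, 9.74 ± 0.10 with PROG and 11.44 ± 0.05 with DHT (SD, n = 4), higher with MPA than with PROG by 1.51 and different from DHT by -0.18 (adjusted p 0.553). UGT2B11 was higher than with PROG by 2.98 and differed from DHT by -2.59 (adjusted p 2.87e-11), since DHT brought it to 12.05 ± 0.10.

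In the same way UGT2B28, UGT2B7, UGT2B10, C1orf116 and CLDN8 stood between PROG and DHT, each higher with MPA than with PROG and lower than with DHT past the threshold. THRSP, HSD11B2, SOCS2, STEAP2, TTC21A and KCNMA1 were higher with MPA than with PROG, by 1.55, 0.81, 1.24, 1.47 (at least 2.62-fold, with 3 PROG arrays above background), 1.28 and 0.99, and their differences from DHT did not pass. DOCK2 was lower with MPA than with PROG by 1.23 and higher than with DHT by 1.20, while CBLN2 was lower than with PROG by 1.31 and differed from DHT by -0.06.

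Other genes were higher with MPA than with DHT. PNMT, above background on 0 DHT arrays, was at least 2.41-fold higher with MPA (adjusted p 2.85e-07), and PSCA, above background on 1, at least 2.89-fold. SERPINA3, measured on all arrays, was higher with MPA than with DHT by 1.69, and DHT against vehicle gave 0.09. SERPINA3 and PSCA differed between MPA and PROG by 0.39 and 0.78 without passing, and PROG against vehicle gave 1.39 and 0.94. STAT5A differed from DHT by 0.79 (adjusted p 0.0845) and RGS2 by 1.72 (0.0845), which did not pass. PNMT was also higher with MPA than with PROG, by 1.12.

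**Figure D5:**
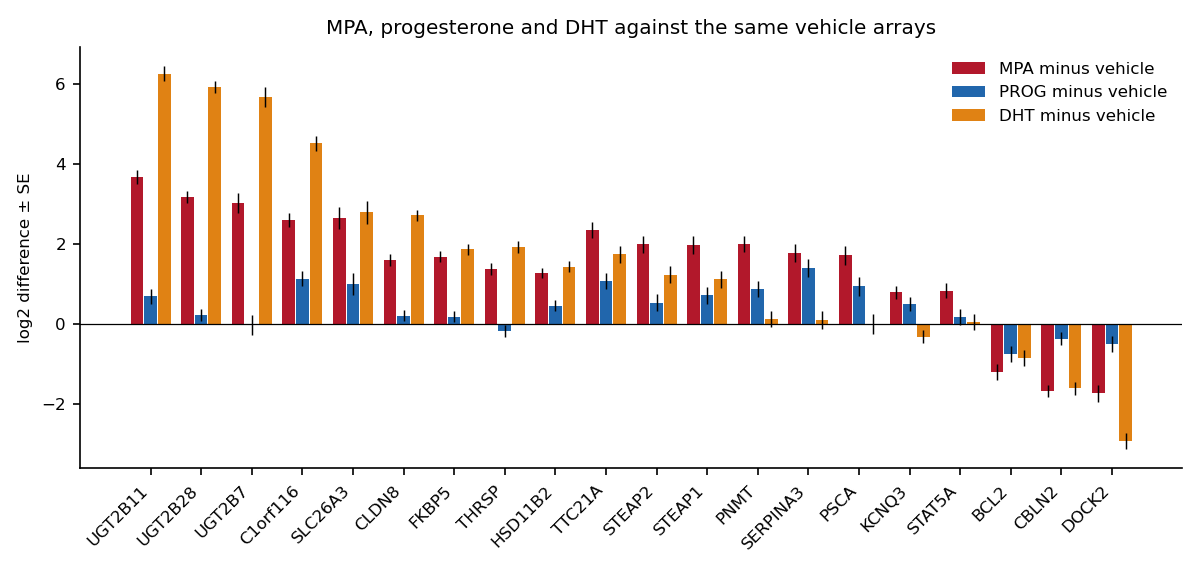
Log2 difference from the same 4 vehicle arrays with MPA, PROG and DHT (bars, ± SE of the fit) for 20 genes past the threshold with MPA. For UGT2B11 the bars are 3.67, 0.69 and 6.26, and for PNMT 2.00, 0.88 and 0.11; bars of genes below background with vehicle are fitted values, and the doses of MPA and PROG are not given.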

How the data were processed

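Per the labels' protocols, biotin-labelled cRNA of ZR-75-1 cells was put on Illumina bead arrays. Per the file headers, the authors deposited intensity before normalization, and a detection p-value beside it, for every probe on each array, and a table of processed intensity values whose scale per array is the authors' own. From the unnormalized intensity of all 36 arrays, limma 3.58.1 in R 4.3.3 (with data.table, version 1.17.8) gave background-corrected, quantile-normalized log2 values (neqc, offset 16). Probes with a detection p under 0.05 on at least 4 arrays were kept, 21116 of 48803. Of the probes 27578 had 1 gene symbol in the platform annotation, 13 had several and 21212 had none. The brightest probe stood for each of 12195 genes, 3207 of which had more than 1 kept probe. A limma model with 1 mean for each of 9 groups left 27 residual degrees of freedom. P-values were adjusted by Benjamini-Hochberg within each comparison, across every gene tested. The number of arrays limits the precision. A gene whose dimmer group was above background on fewer than 4 arrays has a lower bound as its fold, taking each such array at its lowest signal above background (5.86 to 6.21) or its own signal, whichever is higher. The fit was tested on simulated data.

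Named genes are the 15 largest called increases and decreases without overlap between arrays, up to 5 called genes of each of 33 lists, and a fixed set of steroid response genes. Of 871 list symbols 677 were tested. The genes, lists and tests were chosen with earlier results of these data known. The labels do not say that replicate numbers pair the samples, and the main fit used no pairing. Same-numbered MPA and vehicle arrays had deviations from their group means that correlated at 0.10, -0.28, 0.08 and 0.02. For E2+MPA and E2 arrays the values were -0.52, 0.60, 0.55 and -0.08. So few correlations cannot settle whether the samples were paired. Alternatives are given in the closing section. Promoters came from RefSeq (GRCh38.p14), with 9964 of the 12195 tested genes matched by symbol.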

Additional observations from a re-analysis of the deposited data

Results flagged for a closer look

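In 144 groups of 4 arrays, 72 named genes with MPA and with vehicle, the highest or lowest array was checked by the ratio of its gap to the range of its group, against Dixon's 95% critical value. Chance passes about 1 in 20 such groups, and 11 passed. Vehicle replicate 1 was the outlying array for SERPINA3 (ratio 0.875) and CLEC3A (0.838), where it was the highest, for MYC (0.880), also the highest, and for TIPARP (0.848), SOCS2 (0.841) and ESR1 (0.919), where it was the lowest. Vehicle replicate 3 was the lowest array for CTNND2 (0.870), at 7.93 against 8.26 to the nearest. Among MPA arrays, replicate 4 was the highest for TTC21A (0.906) and GOLGA8A (0.834), replicate 3 the lowest for TENM3 (0.896) and replicate 1 the highest for ELF5 (0.951). The other 3 vehicle arrays of SERPINA3 lay within 6.96 to 7.17, against 8.61 on vehicle replicate 1.

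The change with MPA differed between cells with and without E2, by the test of the interaction, in 8 genes. TUBA3E, an alpha tubulin with close copies, had an interaction of 2.70, LGR4 of 1.59, P3H2 of 1.42, UROD of -0.81, SSTR2 of -1.26, CXCL12 of -1.49, PGR of -1.79 and ODAD3 of -2.34. With MPA alone CXCL12, PGR, LGR4, ODAD3 and TUBA3E did not pass.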

How the results depend on the processing

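Of 61 named genes past the threshold, 21 kept their call in all 19 alternatives, 179 of 1159 pairs of gene and alternative lost it, and none reversed. Of the 110 higher genes 32 and of the 119 lower genes 2 held in all 19, with medians of 18 and 13. Fitting only the arrays under comparison, the counts were 40 for MPA against vehicle, 68 for E2+MPA against E2, 4 for the interaction, 17 for MPA against DHT and 27 genes shared. With array weights they were 605 for MPA against vehicle, 15 for the interaction, 196 for MPA against PROG and 1735 for MPA against DHT. Outside columns 13 to 24 they were 694, 88 for E2+MPA against E2, 1 for the interaction and 13 for MPA against DHT, and with those columns as a block 523 for E2+MPA against E2, 80 for the interaction and 87 for MPA against PROG. The authors' processed values gave 2 for the interaction. Leaving out single replicates gave 119 to 1692 for MPA against vehicle, with 126 without MPA replicate 3, 156 to 733 for E2+MPA against E2, 3 to 955 for the interaction, 41 to 55 for MPA against PROG, 30 to 77 for MPA against DHT and 61 to 86 shared genes. Leaving out vehicle replicates 1 and 2 together, chosen after seeing the data, gave 89, 3 for the interaction and 58 shared genes. The other alternatives stayed within 1.5 times the count. A replicate block gave 238 genes, of which 113 were higher, and 81 shared. Genes near background and the 4 vehicle arrays limit what can be resolved, and the causes were not tested.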

Other observations

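Some genes past the threshold stand outside the rule for named genes and were chosen after their values were seen. AQP3, a water and glycerol channel, rose at least 2.22-fold with MPA alone (2 of 4 vehicle arrays above background), with MPA arrays at 7.11, 6.66, 7.20 and 8.19. DDC, which makes dopamine and serotonin from their precursors, rose at least 2.02-fold alone (1 of 4 vehicle arrays above background) and at least 2.26-fold with E2 (3 of 4 arrays of E2 alone above background). PARP9, a partner of the interferon-linked ubiquitin ligase DTX3L, rose by 1.15 alone and by 1.61 with E2. ADCY1, an adenylate cyclase, was at 7.77, 7.67, 7.50 and 7.99 with MPA and at 9.24, 8.59, 8.71 and 8.59 with vehicle, and fell by 1.05 alone and by 1.50 with E2. CSRNP1, a nuclear protein, rose by 0.57 alone and by 1.59 with E2. ABCC11, an efflux pump of apocrine cells, rose by 0.66 alone on the probe used, while 2 of its 3 probes moved that way.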
